A study of Rattus norvegicus with 6 samples.

Results

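Collagens are the proteins whose chains wind into a triple helix and form the fibrils, sheets and filaments of the extracellular matrix. The rows of the deposited gene table were selected by symbol (Col, a collagen number, the letter a and a chain number), which took 45 of 30957 gene rows. Of these, Col4a3bp is the gene of a ceramide transporter that only shares the name of a collagen, and its log2 fold change (log2FC) of -0.04 (adjusted p = 0.578) is not counted below. The remaining 44 rows carry 43 collagen symbols, because Col23a1 is listed on 2 rows. They were divided by collagen number into fibrillar collagens (11 rows), collagens of basement membranes (types IV, XV and XVIII, 7 rows) and all other types (26 rows).

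Total RNA of the lumbar enlargement, taken on the side of the operated leg 14 days after surgery, was sequenced in 3 libraries of bone cancer pain (BCP) rats and 3 libraries of sham-operated rats, all adult female Wistar rats. In BCP rats living Walker 256 cells, a rat mammary carcinoma line passaged as ascites, were placed in the marrow cavity of the left tibia, and the sham operation used heat-killed cells of the same line. The tumor therefore lay in the bone and not in the sampled tissue, and the meninges, a collagen-rich covering of the cord, had been taken off before freezing. The sources do not say in so many words that each library is 1 animal, so the p-values measure the spread between libraries. Sums of gene counts ranged from 11779485 to 15004290 per library. Of the markers of the tissue, those of neurons summed to between 10558 and 12772 CPM (reads per 1000000 gene counts) and those of oligodendrocytes to between 28753 and 45243 CPM in the 6 libraries. BCP replicate 1 stood at least 2-fold above every other library for 5 genes of 2 CPM or more, of which Col1a1 and Col13a1 are collagens, against 1 to 6 such genes in the other libraries.

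Fibrillar collagens form the cross-striated fibrils of bone, tendon, cartilage and vessel walls, and FACIT collagens (fibril-associated collagens with interrupted triple helices) sit on the surface of those fibrils. Type IV collagen forms the network of basement membranes, which in the spinal cord lie around blood vessels and under the pial surface. Type VI forms beaded microfibrils close to cells, and a few collagens span the cell membrane. Healthy cord parenchyma holds little fibrillar collagen outside its vessels and coverings.

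Of the 44 collagen rows, 34 passed the filter on low counts and were tested. These CPM were scaled by the TMM factors of edgeR, a gene was called at an adjusted p under 0.05 in edgeR's quasi-likelihood test, and a log2FC above 0 means a higher level in BCP rats. At this threshold 3 collagens were up-regulated (Col22a1, Col6a1 and Col16a1), which is 8.82% of those tested, whereas 15.8% of all 14908 genes tested were up-regulated. Another 7 were down-regulated (Col14a1, Col4a6, Col2a1, Col11a2, Col27a1, Col4a5 and Col9a3), which is 20.6% of those tested beside 12.1% of all genes. The other 24 did not pass. The changes were mostly small: with the study's threshold of more than 2-fold, Col22a1 remained above (6.35% of all genes did) and Col14a1 below (0.107% of all genes did). Median log2FC was -0.0605 over the tested collagens and -0.0143 over all genes.

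**Figure D1:**
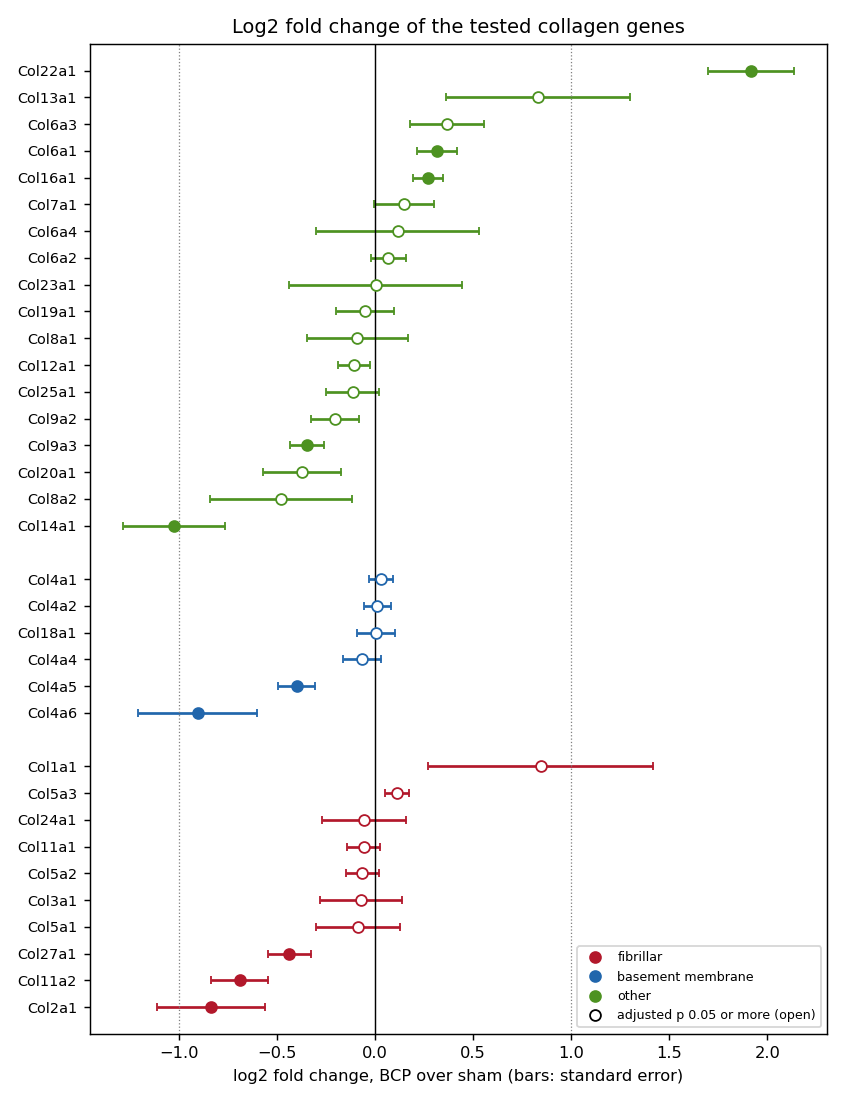
Log2FC of BCP over sham-operated rats for each of the 34 tested collagens, with bars of 1 standard error from the edgeR fit, colored by class. Filled points passed an adjusted p of 0.05, and dotted lines mark a 2-fold change, which Col22a1 passed upward and Col14a1 downward.

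All 10 called collagens had groups that did not overlap. Among the 34 tested, every BCP library lay above every sham library for 4 (11.8%, against 21.7% of all genes) and below for 7 (20.6%, against 19.8% of all genes). The share of collagens separated downward is thus near the share over all genes.

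**Figure D2:**
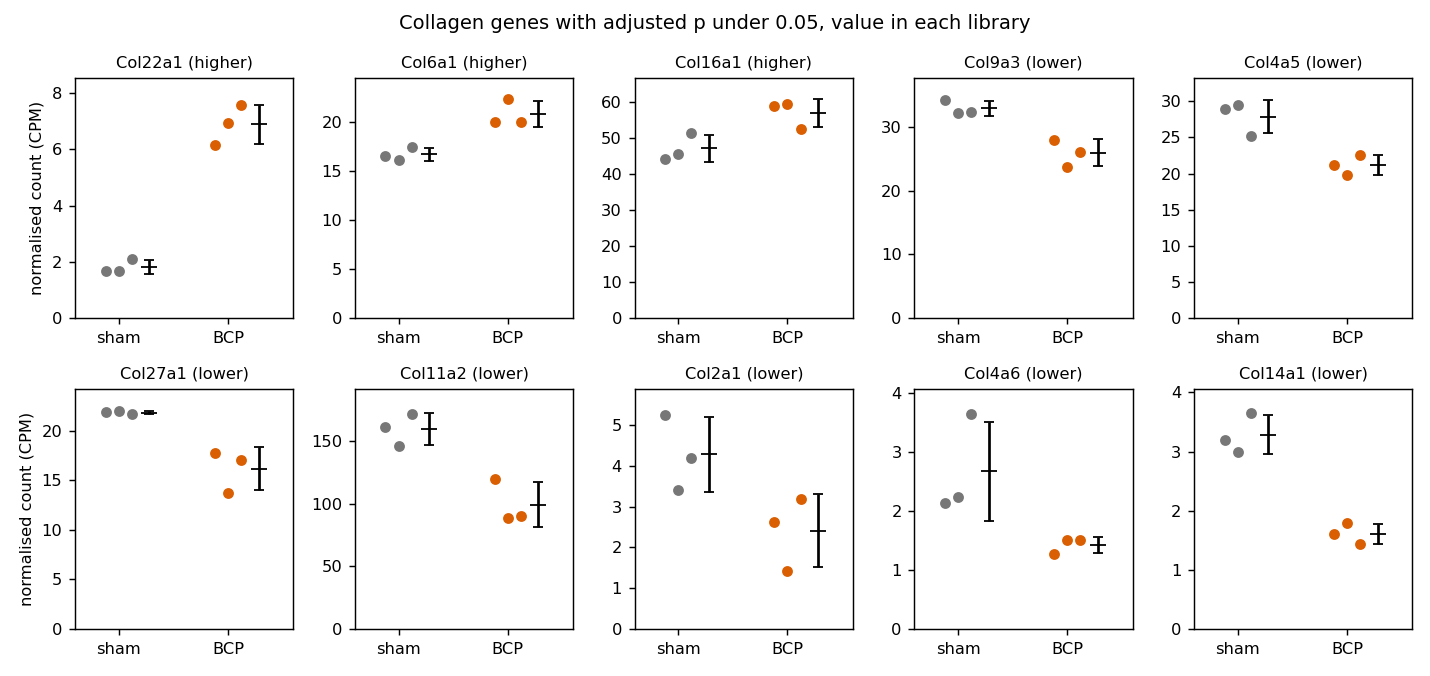
Level of the 10 called collagens in each library in CPM, with the mean and SD (n = 3) beside the points of each group and each axis starting at 0. In every panel the BCP points lie wholly above or wholly below the sham points.

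Because counts grow with transcript length, levels of different collagens were compared as deposited FPKM. Col11a2, which encodes a chain of type XI collagen, had the highest mean over the 6 libraries (19.005 FPKM), followed by Col4a1 (16.2 FPKM), Col4a2 (14.5 FPKM), Col9a3 (14.4 FPKM) and Col5a3 (11.4 FPKM). In the sham libraries alone the mean was 23.2 FPKM for Col11a2 and 15.8 FPKM for Col4a1. In the BCP libraries alone Col11a2 ranked below Col4a1, with means of 14.8 and 16.6 FPKM. Col4a1, from 14.4 to 17.3 FPKM, lay above Col4a2, from 13.4 to 15.9 FPKM, in every library. The place of Col9a3, from 11.9 to 16.5 FPKM, was not fixed. It lay above Col4a2 in every sham library and below it in every BCP library. A mean below 1 FPKM was found for 21 collagen rows. Fibrillar collagens summed to 65.7 ± 4.52 FPKM (SD, n = 3) in sham-operated rats and 60.7 ± 8.81 FPKM in BCP rats. The corresponding sums were 41.7 ± 1.95 and 42.0 ± 2.12 FPKM for basement membrane collagens and 63.3 ± 3.17 and 63.8 ± 2.30 FPKM for the other types. The sums of the basement membrane and other types differed between groups by less than 1 SD of either group. The fibrillar means differed by more than 1 SD of sham-operated rats and less than 1 SD of BCP rats. Fibrillar sums were 64.7, 61.8 and 70.7 FPKM in sham and 70.9, 55.7 and 55.5 FPKM in BCP libraries. BCP replicate 1 was thus the highest of all, and BCP replicates 2 and 3 lay below every sham library.

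**Figure D3:**
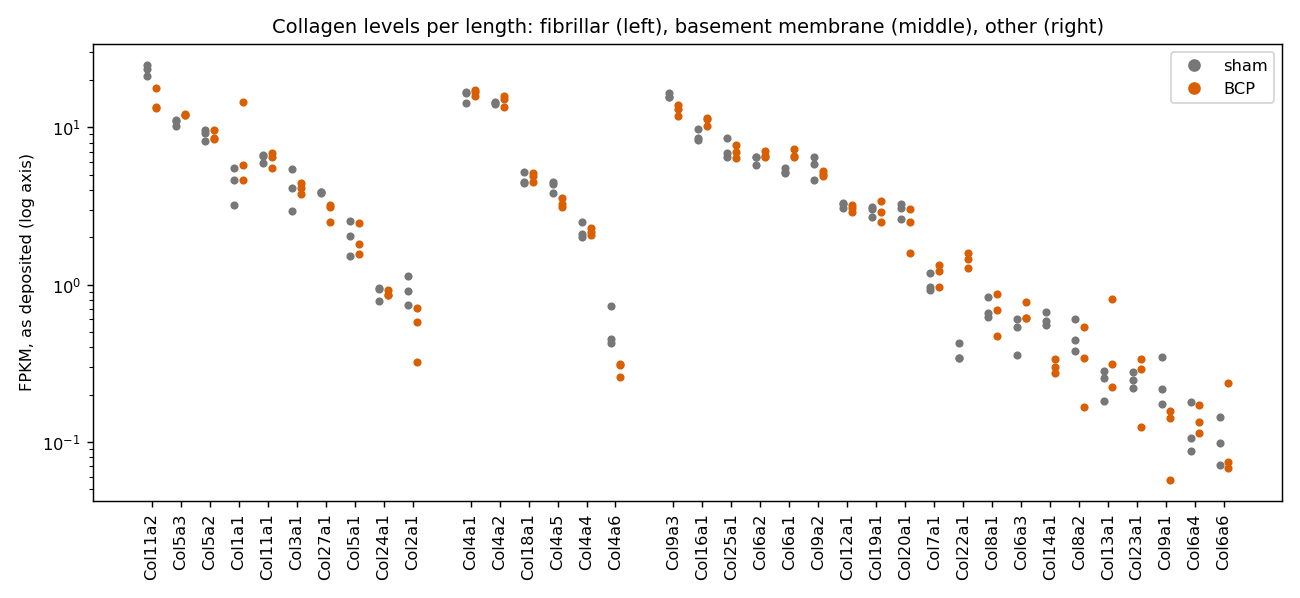
Deposited FPKM (log axis) of each collagen with a mean of at least 0.1 FPKM, 1 point per library, sham libraries to the left and BCP libraries to the right of each tick. Col11a2 is the highest fibrillar collagen and Col4a1 and Col4a2 the highest of basement membranes, and Col22a1 is the low-level collagen whose groups lie farthest apart.

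Among fibrillar collagens, 3 of 10 tested were down-regulated and none was up-regulated, beside 12.1% and 15.8% of all genes. The median log2FC of the class was -0.07. Col11a2 (ENSRNOG00000000463, chr20:3830164-3859018 in Rnor_6.0) was at 161, 146 and 172 CPM in the sham libraries and 120, 88.2 and 89.8 CPM in the BCP libraries. BCP replicate 1 was the highest of its group and still below all sham libraries. The log2FC was -0.69 ± 0.15 (SE, adjusted p = 0.0248), the largest difference in CPM of any called collagen. Without sham replicate 1, sham replicate 3 or BCP replicate 3 the adjusted p was 0.0848, 0.0595 and 0.0741, and the log2FC stayed between -0.84 and -0.61 over all 6 omissions.

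Col2a1 (ENSRNOG00000058560, chr7:139455242-139483997), the main fibril collagen of cartilage, was at 5.26, 3.42 and 4.19 CPM in sham-operated rats and 2.62, 1.43 and 3.18 CPM in BCP rats. Its groups were separated only narrowly, between 3.18 and 3.42 CPM. The log2FC was -0.84 ± 0.27 (adjusted p = 0.0277). The adjusted p was 0.123 without sham replicate 1, 0.0544 without sham replicate 3, 0.171 without BCP replicate 2 and 0.0567 with DESeq2.

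Col27a1 (ENSRNOG00000007657, chr5:79055521-79170765), a fibrillar collagen known from developing cartilage, had nearly equal sham values of 21.87, 21.98 and 21.67 CPM and BCP values of 17.7, 13.7 and 17.1 CPM. All BCP libraries were lower, with BCP replicate 2 the lowest. Its log2FC was -0.44 ± 0.11 (adjusted p = 0.00437). It passed with each library left out and in every alternative fit except the test against a fold change of 2.

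Types II, IX, XI and XXVII are all collagens of cartilage fibrils, and of their 6 tested genes 4 were down-regulated and all 6 had a log2FC below 0, under each of the 4 scalings compared, although Col11a1 was at 0.03 without BCP replicate 2. Over all 14908 genes 12.1% were down-regulated and 7792 had a log2FC below 0. Their median was -0.39 (between -0.43 and -0.35 over the scalings), beside -0.01 over all genes. This grouping was made after the values were known. Col11a1, the partner chain of Col11a2, was at 51.0, 45.8 and 51.5 CPM in sham-operated rats and 52.3, 41.7 and 48.8 CPM in BCP rats. These values overlapped, and the log2FC of -0.06 had an approximate 95% interval from -0.22 to 0.11.

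Of the fibrillar collagens at higher levels, Col5a3, a type V chain, was at 68.0, 62.6 and 68.7 CPM in sham and 72.4, 71.4 and 71.9 CPM in BCP libraries. Among the 34 tested collagens it was the only one whose groups did not overlap without a call: its log2FC of 0.11 had an interval from -0.01 to 0.23 (adjusted p = 0.183). Col5a2, a second type V chain, was at 36.9 to 43.8 CPM in sham and 37.1 to 42.7 CPM in BCP libraries, with a log2FC of -0.06 and an interval from -0.23 to 0.10.

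Col1a1 and Col3a1, chains of the type I and type III collagens of connective tissue and vessel walls, were chosen after their values were seen, because 1 library stood apart. Col1a1 was at 19.05, 27.2 and 32.7 CPM in sham-operated rats and 84.0, 33.0 and 26.5 CPM in BCP rats. Only BCP replicate 1 was clearly above the sham libraries. The log2FC was 0.85 ± 0.57 (adjusted p = 0.380) with all libraries and 0.18 ± 0.27 (adjusted p = 0.717) without BCP replicate 1. Aqp4, the water channel of astrocyte endfeet, was at 2413 CPM in the same library and at 353 to 379 CPM in the other 5. Col3a1 was at 14.3, 19.96 and 26.2 CPM in sham and 17.8, 20.6 and 19.2 CPM in BCP libraries, so BCP replicate 1 did not stand apart for it.

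Among basement membrane collagens 2 of 6 tested were down-regulated and none was up-regulated, beside 12.1% and 15.8% of all genes. Genes of type IV collagen lie in pairs, head to head, so that the start of a pair's chains is separated by a short stretch of DNA. In the RefSeq annotation of the rat assembly GRCr8, which is not the build of the counts, the starts of Col4a1 and Col4a2 are 76 bases apart and those of Col4a5 and Col4a6 are 1414 bases apart. The whole stretch between Col4a1 and Col4a2 (chr16:84885521-84885596) is shown with the 250 bases upstream of Col4a5 (chrX:109907109-109907358) and of Col4a6 (chrX:109905945-109906194). Col4a5 and Col4a6 were called and Col4a1 and Col4a2 were not, but the call of Col4a6 was lost in several alternative fits. A relation of these letters to the levels was not tested. The stretches read 5′ to 3′ on the plus strand for the shared stretch and Col4a5 and on the minus strand for Col4a6. Capitals mark the GC box GGGCGG on either strand, the letters to which SP1 binds.
Col4a1 and Col4a2: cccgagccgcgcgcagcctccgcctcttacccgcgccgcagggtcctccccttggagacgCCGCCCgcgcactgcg
Col4a5: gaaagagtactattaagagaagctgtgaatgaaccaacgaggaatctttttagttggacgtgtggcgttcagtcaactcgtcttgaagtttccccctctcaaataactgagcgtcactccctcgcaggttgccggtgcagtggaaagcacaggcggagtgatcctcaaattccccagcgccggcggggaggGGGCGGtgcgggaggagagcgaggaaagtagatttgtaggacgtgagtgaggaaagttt
Col4a6: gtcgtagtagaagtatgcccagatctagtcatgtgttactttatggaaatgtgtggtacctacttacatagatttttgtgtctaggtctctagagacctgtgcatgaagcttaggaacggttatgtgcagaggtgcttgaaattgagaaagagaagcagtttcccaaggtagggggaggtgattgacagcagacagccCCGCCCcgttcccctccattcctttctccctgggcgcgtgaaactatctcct
Each of the 3 printed stretches holds 1 GC box and none holds TATAAA or CCAAT, but they differ in length. In windows of 250 bases upstream, Col4a1 held 1 GC box and 1 CCAAT, Col4a2 held 2 GC boxes and 1 CCAAT, and Col4a5 and Col4a6 each held 1 GC box and no CCAAT.

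Col4a1 and Col4a2 encode the chains that make up most type IV collagen of blood vessels. Col4a1 was at 110, 111 and 95.8 CPM in sham and 110, 112 and 102 CPM in BCP libraries. Col4a2 was at 72.8, 70.9 and 70.1 CPM in sham and 78.0, 73.0 and 64.8 CPM in BCP libraries. Both genes overlapped between groups, with log2FC of 0.03 (interval -0.09 to 0.15) and 0.01 (interval -0.12 to 0.14).

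Col4a5 and Col4a6 encode chains of more restricted basement membranes. Col4a5 (ENSRNOG00000018951, chrX:112769645-112983685 in Rnor_6.0) was at 29.0, 29.4 and 25.2 CPM in sham-operated rats and 21.1, 19.8 and 22.5 CPM in BCP rats. Its log2FC was -0.40 ± 0.10 (adjusted p = 0.00326). It passed with each library left out and in all alternative fits except the test against a fold change of 2. Col4a6 (ENSRNOG00000056772, chrX:112405647-112473822) was at 2.13, 2.23 and 3.65 CPM in sham and 1.267, 1.499 and 1.513 CPM in BCP libraries, with sham replicate 3 the highest. Its log2FC was -0.90 ± 0.30 (adjusted p = 0.0307). The adjusted p was 0.208 without sham replicate 3, 0.0769 without BCP replicate 1, 0.0701 without BCP replicate 2, 0.0661 without BCP replicate 3 and 0.0921 with DESeq2.

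The remaining chains of the class did not pass. Col4a4 was at 34.5, 27.4 and 29.0 CPM in sham and 30.7, 28.7 and 27.4 CPM in BCP libraries (log2FC -0.07, interval -0.25 to 0.12). Col18a1, whose cleaved end is endostatin, was at 22.9, 26.2 and 22.3 CPM in sham and 24.5, 25.1 and 22.2 CPM in BCP libraries (log2FC 0.01, interval -0.18 to 0.20). The class median of -0.03 was 0.01 when only library size was used for scaling, so the class as a whole has no direction that holds under all scalings.

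Among the other types, 3 of 18 tested were up-regulated and 2 down-regulated, beside 15.8% and 12.1% of all genes. The class median was -0.02, and 0.02 with scaling by library size only. Col22a1 (ENSRNOG00000024824, chr7:113015747-113228439), a FACIT known from tissue junctions such as that of muscle and tendon, showed the largest change of all collagens. It was at 1.68, 1.67 and 2.09 CPM in sham-operated rats and 6.17, 6.93 and 7.57 CPM in BCP rats. Its lowest BCP library was well above its highest sham library. The log2FC was 1.92 ± 0.22, that is 3.78-fold (adjusted p = 1.19e-06), and it was the only collagen to pass a test against a fold change of 2 (adjusted p = 0.00181). Its level remained low, at 0.370 FPKM in sham and 1.44 FPKM in BCP libraries.

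Col14a1 (ENSRNOG00000026415, chr7:95074236-95273298), a FACIT that binds type I collagen fibrils, moved the other way. It was at 3.1998, 3.0003 and 3.645 CPM in sham-operated rats and 1.605, 1.785 and 1.437 CPM in BCP rats, with the groups wide apart. The log2FC was -1.02 ± 0.26 (adjusted p = 0.00513). It passed the adjusted p in every fit except the test against a fold change of 2. Its change was close to 2-fold, and it no longer exceeded 2-fold with scaling by library size only (log2FC -0.983), without sham replicate 3 (-0.940) or without BCP replicate 3 (-0.947).

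Col16a1 (ENSRNOG00000031475, chr5:148257642-148311645), a FACIT of several connective tissues, was at 44.3, 45.6 and 51.4 CPM in sham and 58.9, 59.4 and 52.4 CPM in BCP libraries. Sham replicate 3 and BCP replicate 3 were nearly equal. The log2FC was 0.27 ± 0.08 (adjusted p = 0.0110), with an adjusted p of 0.0584 without sham replicate 1, 0.0527 without sham replicate 2 and 0.0589 without BCP replicate 2.

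Col9a3 (ENSRNOG00000009531, chr3:176102351-176124306) encodes a chain of type IX collagen, a FACIT of cartilage fibrils, and had the highest FPKM of the other types. It was at 34.3, 32.2 and 32.3 CPM in sham and 27.96, 23.77 and 26.10 CPM in BCP libraries. The log2FC was -0.34 ± 0.09 (adjusted p = 0.00529) and it passed in every fit except the test against a fold change of 2. Its partner Col9a2 was at 13.9, 17.5 and 19.4 CPM in sham and 14.8, 15.3 and 14.1 CPM in BCP libraries. Sham replicate 1 was below all BCP libraries, and the log2FC of -0.20 had an interval from -0.45 to 0.04.

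Only types IV, V and VI had 3 or more tested chains, and of these only type VI had all log2FC above 0. This held under each of the 4 scalings, with a median of 0.22, although Col6a4 was at -0.09 without sham replicate 2 and -0.05 without BCP replicate 3. Over all 14908 genes 7116 had a log2FC above 0, and type VI was singled out after the values were known. Of its 4 tested genes only Col6a1 (ENSRNOG00000001249, chr20:12658065-12675561) passed. Col6a1 was at 16.5, 16.1 and 17.5 CPM in sham and 20.02, 22.35 and 20.05 CPM in BCP libraries. The log2FC was 0.32 ± 0.10 (adjusted p = 0.0225), but the adjusted p was 0.0571 without sham replicate 1, 0.0751 without sham replicate 2, 0.115 without BCP replicate 2 and 0.0599 with DESeq2. Its partner Col6a2 was at 21.6, 24.1 and 24.4 CPM in sham and 24.3, 25.6 and 23.5 CPM in BCP libraries (log2FC 0.07, interval -0.11 to 0.25). Col6a3 was at 4.50, 6.70 and 7.49 CPM in sham and 9.46, 7.42 and 7.41 CPM in BCP libraries (log2FC 0.37, interval 0.00 to 0.74), and Col6a4 was between 0.558 and 1.15 CPM.

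Col25a1, a transmembrane collagen made by neurons, was at 12.04, 12.63 and 15.80 CPM in sham and 13.9, 12.4 and 11.3 CPM in BCP libraries (log2FC -0.11, interval -0.38 to 0.15). Col13a1, a transmembrane collagen of the neuromuscular junction, was below 1 CPM in 5 libraries and at 2.37 CPM in BCP replicate 1. Its log2FC was 0.83 (adjusted p = 0.215), and 0.13 (adjusted p = 0.885) without that library. Over the 24 collagens that did not pass, log2FC ranged from -0.48 to 0.85.

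Chains of a collagen were also compared within each library, as ratios of FPKM, so that the scaling between libraries cancels. Col11a2 to Col11a1 was 3.57, 3.60 and 3.77 in sham and 2.59, 2.39 and 2.08 in BCP libraries. Col4a5 to Col4a1 was 0.267, 0.269 and 0.268 in sham and 0.195, 0.179 and 0.225 in BCP libraries. Both ratios were lower in every BCP library than in any sham library. Col6a1 to Col6a2 was 0.908, 0.793 and 0.850 in sham and 0.975, 1.03 and 1.01 in BCP libraries, again without overlap. Col4a1 to Col4a2 was between 1.03 and 1.18 in sham and between 1.06 and 1.18 in BCP libraries, and Col9a3 to Col9a2 was between 2.40 and 3.56 and between 2.24 and 2.74. These last ratios overlapped between groups. So did those of Col4a5 to Col4a6, Col4a1 to Col4a4, Col6a3 to Col6a1 and Col5a2 to Col5a1. Col1a1 to Col3a1, chains of different collagens, was 1.09, 1.12 and 1.02 in sham and 3.86, 1.31 and 1.13 in BCP libraries, without overlap. With 3 libraries against 3 these ratios are a description and were not tested.

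**Figure D4:**
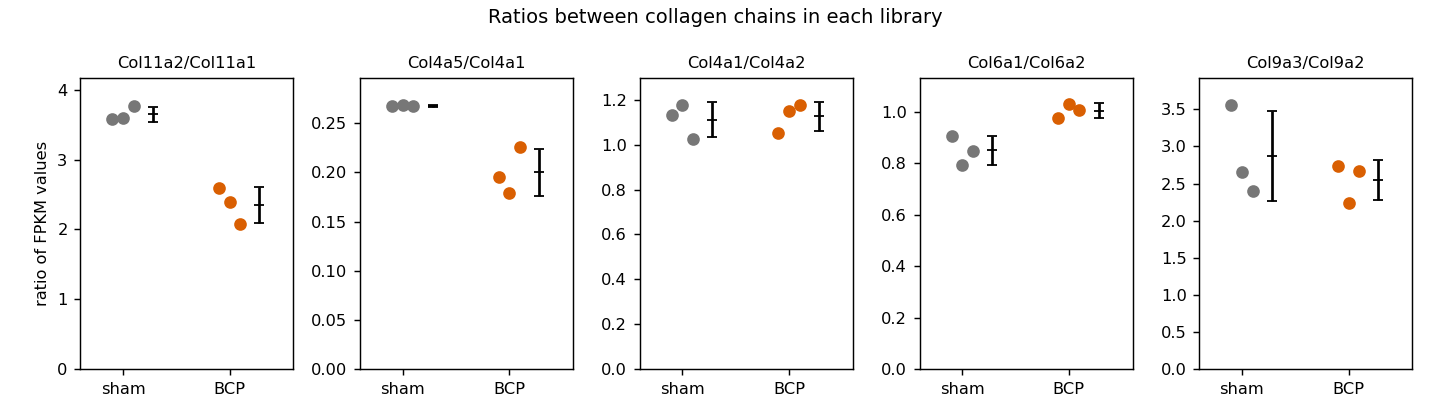
Ratio of the FPKM of the named chains in each library, with the mean and SD (n = 3) beside the points of each group and each axis starting at 0. Col11a2 to Col11a1 and Col4a5 to Col4a1 were lower in all BCP libraries, Col6a1 to Col6a2 was higher, and the ratios of Col4a1 to Col4a2 and of Col9a3 to Col9a2 overlapped.

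Another 10 collagen rows had too few counts to be tested. Col1a2, Col15a1 and a second Col23a1 row were listed at 0 in every library. For Col1a2, the partner chain of Col1a1, this is not evidence of absence, because Hprt1 and Rps6, genes that every cell uses, were listed at 0 as well. Col9a1, the third chain of type IX collagen, had 11, 19 and 10 counts in sham and 7, 3 and 7 counts in BCP libraries. Col6a5 and Col6a6 had 0 to 22 counts, and Col10a1, Col17a1 and Col26a1 had 0 to 8 counts in any library. Col28a1 had 2, 2 and 1 counts in sham and 4, 7 and 4 counts in BCP libraries. In CPM every BCP library lay below every sham library for Col9a1 and above for Col28a1. With no filter on low counts 3 collagens were higher and 7 lower, as in the main fit, and no row untested there passed.

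Other genes of the collagen pathway were taken from 5 lists, and of their 79 tested members 15 were up-regulated and 9 down-regulated. These shares of 19% and 11.4% lie near the 15.8% and 12.1% of all genes. Scaling by library size only gave 18 and 6, and upper-quartile normalization gave 15 and 12. Of 21 tested modifying enzymes and chaperones, 3 were up-regulated and 2 down-regulated. P4hb, a subunit of the prolyl hydroxylase that stabilizes the helix, rose from 134 ± 5.42 to 167 ± 10.9 CPM (log2FC 0.32, adjusted p = 0.000120). The collagen galactosyltransferases went apart, Colgalt1 with a log2FC of 0.33 (adjusted p = 0.00358) and Colgalt2 with -0.44 (adjusted p = 0.00667). Crtap, a partner of prolyl 3-hydroxylase, rose (0.74, adjusted p = 0.0220) and P3h3, a member of that hydroxylase family, fell (-0.26, adjusted p = 0.0220).

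Of 13 tested genes of procollagen processing and cross-linking, 2 were up-regulated and 1 down-regulated, beside 15.8% and 12.1% of all genes. Pcolce, which enhances the removal of the procollagen tail, was at 4.65, 2.93 and 3.31 CPM in sham and 5.49, 8.996 and 7.11 CPM in BCP libraries (log2FC 1.002, adjusted p = 0.00179). Loxl4, a lysyl oxidase that cross-links chains, rose with a log2FC of 1.36 (adjusted p = 0.00801) at a level under 2 CPM. Bmp1, the protease that removes the tail, fell with a log2FC of -0.24 (adjusted p = 0.0465).

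Of 10 tested genes listed as collagen receptors, 3 were up-regulated and 1 down-regulated, beside 15.8% and 12.1% of all genes. Lair1, an inhibitory collagen receptor of leukocytes and microglia, was at 2.51, 1.47 and 1.89 CPM in sham and 10.2, 12.8 and 11.7 CPM in BCP libraries (log2FC 2.57, adjusted p = 7.97e-09). The discoidin domain receptor Ddr2 was at 8.38, 10.2 and 6.35 CPM in sham and 15.46, 20.78 and 20.96 CPM in BCP libraries (log2FC 1.20, adjusted p = 3.80e-05). Its relative Ddr1 fell slightly, from 284 ± 2.98 to 250 ± 2.66 CPM (log2FC -0.19, adjusted p = 0.00232). Cd93 of endothelium rose with a log2FC of 0.30 (adjusted p = 0.0190). It is counted here as a listed gene, and whether it binds collagen was not examined.

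Of 16 tested partners of type IV collagen in basement membranes, 1 was up-regulated and 2 down-regulated, beside 15.8% and 12.1% of all genes. Pxdn, the peroxidase that cross-links type IV collagen, fell from 31.2 ± 2.59 to 24.4 ± 3.55 CPM (log2FC -0.36, adjusted p = 0.0138), and the laminin chain Lama2 fell with a log2FC of -0.24 (adjusted p = 0.0158).

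Of 19 tested proteoglycans and glycoproteins that bind fibrils, 6 were up-regulated and 3 down-regulated, beside 15.8% and 12.1% of all genes. Fibronectin (Fn1) was at 159, 157 and 145 CPM in sham and 220, 233 and 254 CPM in BCP libraries (log2FC 0.61, adjusted p = 6.51e-08). Tenascin C (Tnc) was at 23.92, 19.96 and 18.23 CPM in sham and 40.1, 47.3 and 40.9 CPM in BCP libraries (log2FC 1.05, adjusted p = 1.90e-07). Matn2, a matrilin that links matrix filaments, rose with a log2FC of 0.78 (adjusted p = 6.17e-05). Of the fibulins, Fbln2 (-0.44, adjusted p = 0.000246) and Fbln5 (-0.74, adjusted p = 0.0413) fell, and so did tenascin X, Tnxb (-0.19, adjusted p = 0.0224). Of the collagens 3 of 34 tested were up-regulated, and the difference between the lists was not tested.

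**Figure D5:**
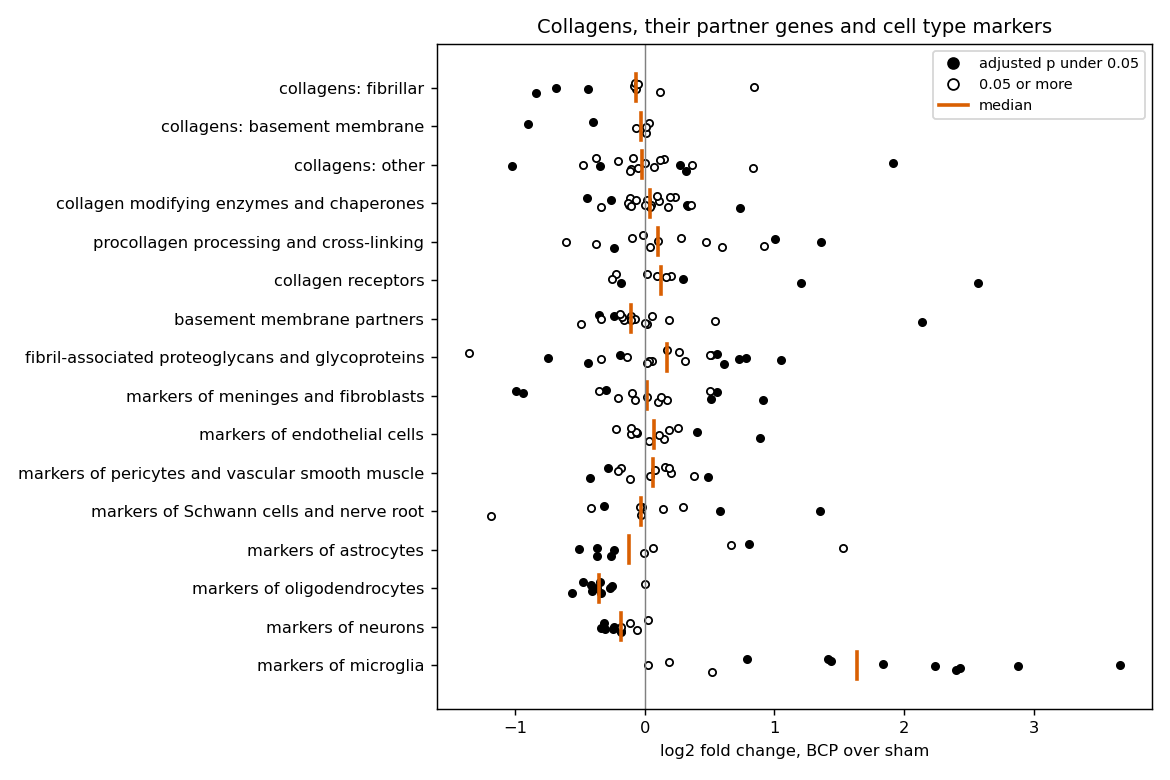
Log2FC of BCP over sham-operated rats for each tested gene of the collagen classes, the partner lists and selected cell type markers, with filled points for an adjusted p under 0.05 and a line at each list's median (points are spread vertically for visibility). Collagen classes center near 0 with single genes to either side, whereas markers of microglia lie to the right and those of oligodendrocytes to the left.

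In tissue, fewer cells of a type and less RNA per cell cannot be told apart, so the markers of cells that make collagen were measured beside these results. Of all genes tested, 15.8% were up-regulated and 12.1% down-regulated. Markers of meninges and fibroblasts had 15 of 18 genes tested, of which 3 were up-regulated and 3 down-regulated with a median log2FC of 0.01. Their sum was 526 to 550 CPM in sham and 445 to 483 CPM in BCP libraries, and Ogn was at 0 in all libraries. The largest part of this sum was Ptgds, with means of 300 CPM in sham and 243 CPM in BCP libraries. Pdgfra is also in the list of oligodendrocyte precursors. The members that fell were Slc13a3 (-0.996), Igf2 (-0.94) and Ptgds (-0.30), and those that rose were Islr (0.91), Fmod (0.55) and Thbs2 (0.51). Markers of endothelial cells (12 tested, 2 up-regulated, 593 to 623 CPM in sham and 656 to 701 CPM in BCP libraries), of pericytes and smooth muscle (12 tested, 1 up-regulated, 2 down-regulated) and of Schwann cells (10 tested, 2 up-regulated, 1 down-regulated) had medians between -0.03 and 0.07. Markers of oligodendrocytes fell in 9 of 10 genes (median -0.36), of their precursors in 3 of 6, of neurons in 8 of 12 (median -0.19) and of astrocytes in 5 of 10, while Gfap rose. Markers of microglia rose in 9 of 12 (median 1.64), of T cells in 7 of 7 and of macrophages and monocytes in 1 of 5. Markers of cartilage and bone had 8 of 13 genes tested, with Runx2 up-regulated (1.53) and Acan (-0.37) and Alpl (-0.56) down-regulated. They summed to 171 to 184 CPM in sham and 170 to 178 CPM in BCP libraries, with Bglap, Matn1 and Ibsp below 0.4 CPM. Most of this sum was Sox9, Acan and Hapln1 (means of 59.6, 52.8 and 42.0 CPM in sham). Sox9 is also in the list of astrocytes, so the sum is not one of cartilage and bone alone. Ependymal cells had 1 of 7 and skeletal muscle 1 of 4 down-regulated, and of the epithelial tumor markers only Krt18 had enough counts to be tested (log2FC 0.82, adjusted p = 0.164). The part of any of these cells in the collagen values was not tested.

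The series also holds a table of lncRNA transcripts, and 69 of them overlapped the span of 31 collagen genes. Of these, 51 had at most 10 counts in every library and 16 were tested. Of all 12157 lncRNAs tested, 1.97% were called, 1.57% as up-regulated and 0.395% as down-regulated. Over collagens 1 was called, as down-regulated, NONRATT018957.2 (chr3:176117545-176120260 in Rnor_6.0), which lies within the span of Col9a3. It had 44, 56 and 62 counts in sham and 15, 18 and 10 counts in BCP libraries, with a log2FC of -1.75 ± 0.28 (adjusted p = 0.0207). Whether the counting used strand is not stated, so reads of this transcript and of Col9a3 cannot be told apart. With the replicate number as a block its adjusted p was 0.102. Another 2 had an unadjusted p under 0.05 and did not pass, NONRATT028311.2 within Col5a3 (log2FC 1.27) and NONRATT018970.2 within Col20a1 (log2FC -0.92).

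Promoters, taken as the 250 bases upstream of a gene's start in RefSeq (GRCr8), were found for 34 of the 43 collagen symbols, among them 6 of the 10 called (Col4a5, Col4a6, Col11a2, Col27a1, Col16a1 and Col6a1). They had a median of 58.6% G and C, with a range from 40.4% to 75.2%, beside 52.0% over 27457 promoters. The GC box GGGCGG, read on both strands, was found in 18 of 34 collagen promoters (52.9%) and in 32.4% of all promoters. CCAAT was found in 32.4% of collagen and 34.3% of all promoters, and TATAAA in 11.8% and 13.1%. TTCNNNGAA, the site of STAT factors, was found in 2.94% of collagen and 7.52% of all promoters. None of these strings of letters contains another, and a match is a description of the letters and not of binding.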

How the data were processed

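RNA-seq libraries of spinal cord from 3 BCP and 3 sham-operated rats were grouped by the condition in their labels. Ribosomal RNA was depleted before stranded library preparation. After filtering by Seqtk, the authors aligned reads to Rnor_6.0 (HISAT2 2.0.4) and obtained FPKM from StringTie 1.3.0. The deposited values are unnormalized counts and the authors' FPKM per gene and per lncRNA transcript. The counter and its use of strand are not given in the sources used here, so overlapping and antisense genes could share reads. FPKM was used to compare genes within a library. Where FPKM levels or sums are given by group, they carry no TMM scaling and were not tested.

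The test of counts was that of edgeR 4.0.16 (R 4.3.3, filter by expression, TMM, robust quasi-likelihood fit on condition, Benjamini-Hochberg adjustment over 14908 genes or 12157 lncRNAs). TMM factors were 0.982 to 1.02 and the biological coefficient of variation was 7.72%. Libraries of a group differed by more than counting noise (chi-square divided by its degrees of freedom was 3.48 to 6.04). The code was tested on simulated counts with 200 changed genes, of which it recovered 98.5%. Recovery of changes as small as those of most called collagens was not tested separately. Alternatives were DESeq2 1.42.0, edgeR's exact and likelihood ratio tests, other scalings and filters, a test against a fold change of 2, a replicate block, gene library sizes for the lncRNA table and omission of single libraries. The collagens, partner lists and marker lists were chosen with earlier results of these data known. Described in full were the called collagens, the 3 of highest mean FPKM in each class and partner chains of called collagens, and of each partner list up to 3 called genes in each direction with the smallest p-values. A gene that this rule selects is not reported here. Approximate 95% intervals are the log2FC with its SE under a normal distribution. Promoter sequences came from RefSeq (GRCr8), another build than that of the counts, and no coordinates were converted.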

Additional observations from a re-analysis of the deposited data

How the results depend on the processing

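With 3 libraries per group and 11779485 to 15004290 counts, the 10 untested collagen rows had at most 22 counts in any library. Differences were hard to detect at such counts, and none of these rows passed with no filter on low counts. Across the alternatives 296 values of the 22 named collagens kept direction and side of the threshold, 19 fell short of it and 14 changed sign, all of genes that passed in no setting. With upper-quartile normalization log2FC was -0.0282 for Col18a1, -0.0218 for Col4a2 and -0.0047 for Col4a1. With a library omitted it ranged from -0.0401 to 0.0828 for Col18a1, -0.0407 to 0.0834 for Col4a2, -0.0368 to 0.0715 for Col4a1, -0.133 to 0.0360 for Col4a4, -0.0883 to 0.484 for Col6a4, -0.187 to 0.0176 for Col25a1 and -0.121 to 0.0336 for Col11a1. Of the 10 called collagens, 5 (Col22a1, Col4a5, Col27a1, Col14a1 and Col9a3) passed in every setting other than the test against a fold change of 2, which only Col22a1 passed, and DESeq2 called 2 higher and 5 lower. Omitting a library gave 1 to 3 higher collagens (1 without sham replicate 1, sham replicate 2 or BCP replicate 2) and 4 to 7 lower (4 without sham replicate 3). The count lower by more than 2-fold was 0 with library size only and in the test against a fold change of 2, and 0 to 2 with a library omitted, with 0 without sham replicate 3 and 2 without sham replicate 1 or 2. Partner genes numbered 15 higher and 12 lower with upper-quartile normalization, 18 and 6 with library size only, and 13 to 16 higher and 4 to 8 lower with a library omitted (4 without BCP replicate 2). Median log2FC then ranged from -0.121 to -0.0233 for fibrillar, -0.0712 to 0.0160 for basement membrane and -0.0658 to 0.0932 for other collagens, the last value without BCP replicate 1. The cause of these changes was not tested.

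The same replicate numbers occur in both groups, and the sources do not say that they pair the libraries. Deviations of same-numbered libraries correlated at -0.11, 0.04 and -0.04, and those of differently numbered ones at -0.12 to 0.14. Such correlations over all genes show no pairing but cannot exclude one that affects some genes. With the replicate number as a block 3 collagens were higher and 7 lower, all 10 called collagens still passed, and the count of called lncRNAs over collagens was 0.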

Other observations

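Sham libraries differed among themselves for some collagens of connective tissue, with Col1a1 at 19.05, 27.2 and 32.7 CPM, Col3a1 at 14.3, 19.96 and 26.2 CPM and Col6a3 at 4.50, 6.70 and 7.49 CPM in sham replicates 1, 2 and 3. Dcn, a proteoglycan of fibroblasts, was at 5.56, 8.79 and 10.8 CPM in the same libraries and at 9.04, 7.996 and 11.4 CPM in BCP replicates 1, 2 and 3. Col5a1 had another order, at 16.99, 13.6 and 10.3 CPM in the sham libraries. These genes were chosen after their values were seen, and the values are given without a test.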
